A study of Mus musculus with 20 samples.

Results

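The genes described here are the mouse Eph receptors (Epha and Ephb), the ephrins (Efna and Efnb), Slit1 to Slit3, Robo1 to Robo4, the netrins, the Unc5 receptors, Dcc and Neo1, chosen by symbol alone. They took up 40 of the 47729 gene identifiers in the files and 38 symbols, since Ntn5 had 3 identifiers. By symbol there were 9 EphA receptors, 5 EphB receptors, 5 ephrin-A ligands, 3 ephrin-B ligands, 3 Slit ligands, 4 Robo receptors, 3 netrins and 6 netrin receptors. Of these, 36 passed the filter on low counts over all 20 libraries, and Epha1 and Ntn5 did not. RNA came from the cortex and the hippocampus of 10 C57Bl/6J pups at postnatal day 7, 5 wild-type (WT, mice 1 to 5) and 5 Ube3aOE (mice 6 to 10), with 1 stranded mRNA library for each tissue of each mouse. Ube3aOE mice carry a bacterial artificial chromosome transgene that holds the mouse Ube3a gene with its flanking sequence, so Ube3a, a ubiquitin ligase, is raised wherever that sequence drives it rather than in a chosen cell type. The study's text calls the sequenced genotype Ube3a+2 and says that its later experiments centred on mice of line E, and the line of these pups is not stated apart from that. Each library was bulk tissue, in which fewer cells of a type and less RNA per cell cannot be told apart.

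Axons are steered through the growing brain by cues that draw them on or turn them back. Ephrins are ligands held on the membrane of one cell, and the Eph receptor tyrosine kinases on a neighbouring cell bind them, in many contexts causing repulsion. EphA receptors mostly bind ephrin-A ligands, which are anchored by a lipid, and EphB receptors mostly bind ephrin-B ligands, which cross the membrane. Slit proteins are secreted and act through Robo receptors, and netrins are secreted or laid down in the matrix and act through Dcc and Neo1, often as attraction, and through the Unc5 receptors as repulsion. In the hippocampus these families are known for laying out topographic and laminar projections, and in the neocortex for the paths of thalamic, callosal and corticofugal axons.

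Between 14191093 and 16752326 reads of a library were counted on genes, with a median of 16295195. Ube3a ran from 54.4 to 70.0 CPM (counts scaled to a common total of the library, with TMM factors) in WT cortex and from 130 to 182 CPM in Ube3aOE cortex, and from 57.1 to 76.8 CPM and 142 to 195 CPM in hippocampus, so the genotype labels held in all 20 libraries. The counts of sex-linked genes went against the labelled sex in 2 of the 10 mice, both of them WT. In 7 libraries the markers of a neighbouring structure were high or those of the labelled tissue low, and a region call that changes or moves by over 1.5 times when they are left out is given below with and without them. Summed markers of hippocampus lay at 168 to 196 CPM in WT cortex and at 178 to 258 CPM in Ube3aOE cortex. The highest cortical sums were those of mice 8 and 9. In hippocampus the sums were 404 to 650 CPM in WT and 418 to 597 CPM in Ube3aOE mice. Of these 7 genes 6 were called higher in hippocampus. Prox1, Zbtb20, Wfs1 and Grik4 were higher in the cortex of mice 8 and 9 than in any other cortex. Dsp (0.239 and 0.732 CPM) and Bok (60.6 and 68.5 CPM) were not. Neurod1 (26.7 and 21.1 CPM) lay below the 27.7 CPM of WT mouse 2. Summed markers of neocortex lay at 981 to 1046 CPM in WT cortex and at 814 to 1070.35 CPM in Ube3aOE cortex, where the lowest values were again those of mice 8 and 9, against 328 to 654 CPM and 294 to 437 CPM in hippocampus. In hippocampus, WT mouse 2 was highest for neocortex and lowest for hippocampus markers, Ube3aOE mouse 9 was highest for striatum markers, and WT mouse 4 and Ube3aOE mice 7 and 10 were highest for thalamus markers. Summed markers of choroid plexus were 2073 CPM in the hippocampus of mouse 7 and 404 CPM in that of mouse 9. In the other libraries they lay at 46.6 to 84.1 CPM.

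Promoter sequences are shown for the 2 genes with the largest differences in each direction between the tissues, so that the genes that rose and fell can be read against each other. Each line gives the 250 bases before the RefSeq start of the gene, 5′ to 3′ on the gene's strand, in GRCm38.p6, with capitals where a motif stood on either strand. Searched were the letters GGGCGG, known as the GC box. The letters TATAAA, known as the TATA box, were searched as well. The CCAAT box was searched by the letters of its name, and no match of one motif overlapped with that of another in the printed stretches. They lie at chr16:60605532-60605781 (minus strand) for Epha6, chr11:35121206-35121455 (plus strand) for Slit3, chr17:62881318-62881567 (minus strand) for Efna5 and chr8:8661243-8661492 (minus strand) for Efnb2. In GENCODE M21 the Slit3 gene starts at base 35121224, so most of its stretch, with all its GC boxes, lies within the gene as annotated there.
Epha6: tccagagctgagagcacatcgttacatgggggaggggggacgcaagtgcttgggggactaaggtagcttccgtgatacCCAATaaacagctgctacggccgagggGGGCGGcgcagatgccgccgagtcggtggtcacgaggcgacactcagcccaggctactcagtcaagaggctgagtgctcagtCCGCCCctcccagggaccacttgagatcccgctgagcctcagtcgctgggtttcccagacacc
Slit3: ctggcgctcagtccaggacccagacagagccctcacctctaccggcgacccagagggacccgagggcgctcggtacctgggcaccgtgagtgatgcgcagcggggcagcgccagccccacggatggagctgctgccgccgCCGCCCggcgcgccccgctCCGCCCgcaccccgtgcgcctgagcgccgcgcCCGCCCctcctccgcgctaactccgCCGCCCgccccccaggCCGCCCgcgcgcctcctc
Efna5: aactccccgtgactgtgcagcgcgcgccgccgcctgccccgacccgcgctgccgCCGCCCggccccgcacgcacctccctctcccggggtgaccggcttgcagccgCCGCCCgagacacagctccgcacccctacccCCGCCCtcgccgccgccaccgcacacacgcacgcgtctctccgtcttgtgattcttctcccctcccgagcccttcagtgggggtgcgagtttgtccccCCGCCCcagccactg
Efnb2: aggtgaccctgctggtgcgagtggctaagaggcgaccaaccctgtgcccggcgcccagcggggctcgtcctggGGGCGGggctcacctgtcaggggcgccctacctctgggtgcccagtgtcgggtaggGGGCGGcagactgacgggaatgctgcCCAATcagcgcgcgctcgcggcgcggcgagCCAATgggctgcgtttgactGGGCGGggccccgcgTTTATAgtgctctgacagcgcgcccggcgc
The GC box stood 2 times in the Epha6 stretch, 5 times in Slit3, 4 times in Efna5 and 3 times in Efnb2, so it was found both in genes that were higher and in genes that were lower in hippocampus. A TATA box stood in Efnb2 and in none of the other 3 printed stretches. A promoter entry was found for 33 of the 38 symbols, of which 4 had more than 1 entry and the first was used. The GC box was in 23 of these 33 stretches (69.7%), in 32.9% of all 27025 genes with an entry and in 58.6% of the 11404 of them that were tested between the tissues. The CCAAT box was in 13 of 33 (39.4%), against 34.5% and 35.8%. The TATA box was in 2 of 33, Slit2 and Efnb2 (6.06%), against 13.0% and 6.47%. The median number of CG pairs was 17 in the 33 stretches and 15 in those of the genes tested. A match is a description of letters and no evidence of a bound factor.

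The families differed in level, which was compared between genes only per length, as CPM per kilobase of annotated exon. The B-type ephrins made up the highest sum, with a median of 112 CPM per kilobase in cortex and 126 in hippocampus, and most of it was Efnb3, a ligand of EphB receptors and of EphA4, which gave 76.4% of the family's sum in cortex and 89.3% in hippocampus at the median. Efnb3 held the first place among the 38 symbols in both tissues, at 70.9 to 126 CPM per kilobase in cortex and 90.1 to 148 in hippocampus. Its range overlapped with no other member's in either tissue. In hippocampus the next places went to Epha4 at a median of 43.6 CPM per kilobase, Efna3 at 37.1 and Neo1 at 33.7, whose ranges over the 10 libraries overlapped. In cortex they went to Ephb6 at 50.0, Neo1 at 49.2 and Efna3 at 36.6. The range of Ephb6 overlapped with those of Neo1 and Efna3, which did not overlap with each other. The netrins were the lowest family, with a median sum of 5.66 CPM per kilobase in cortex and 4.45 in hippocampus. Ntn5 had a median of 0 CPM per kilobase in both tissues, and its identifiers had at most 1 count in a library.

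**Figure D1:**
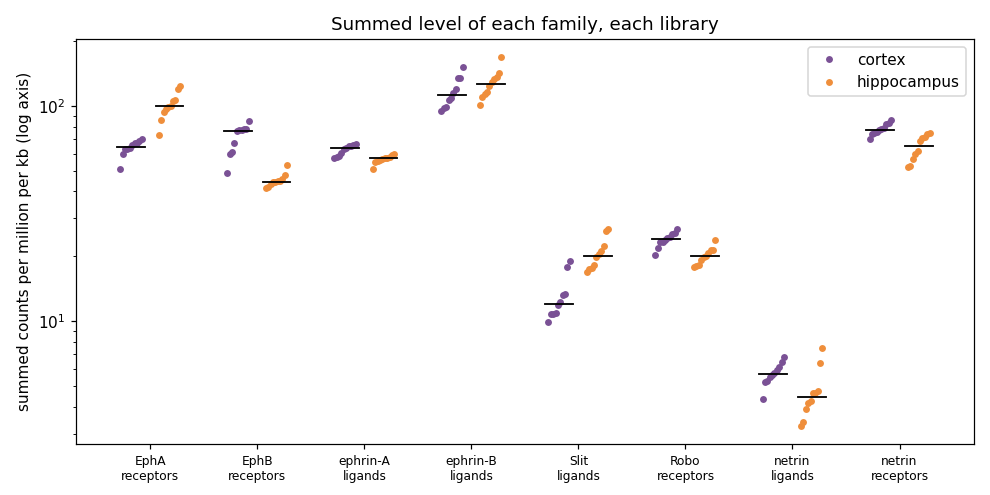
Summed level of each family in CPM per kilobase of exon (log axis), 1 point for each of the 10 cortex (purple) and 10 hippocampus (orange) libraries, with the median as a line. The EphA and Slit sums were higher in the hippocampus of 10 of 10 mice, and the EphB, Robo and netrin receptor sums were higher in it in 0 of 10.

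The summed EphA receptors had a median of 99.2 CPM per kilobase in hippocampus and 64.5 in cortex, and the summed Slit ligands 20.1 and 12.0, each higher in the hippocampus of all 10 mice. The summed EphB receptors had a median of 44.4 in hippocampus and 76.7 in cortex, the Robo receptors 20.0 and 24.0, and the netrin receptors 65.0 and 77.4, each lower in the hippocampus of all 10 mice. The parts that members took of these sums differed between the tissues. Within the Robo family, Robo2 gave 67.6% of the summed level in cortex at the median and 39.6% in hippocampus, where Robo1 gave 49.1%. Within the Slit family, Slit1 gave 78.3% in cortex and 59.0% in hippocampus, where Slit3 gave 35.1%. Within the EphB family, Ephb6 gave 65.2% in cortex and 42.1% in hippocampus. Ephb6 alone had a median of 50.0 CPM per kilobase in cortex and 18.0 in hippocampus. The medians of Ephb2 (11.0 and 12.2), Ephb3 (4.49 and 4.78) and Ephb4 (1.39 and 1.77) were slightly higher in hippocampus, and that of Ephb1 (8.38 and 7.25) was lower. The lower EphB sum in hippocampus was therefore mostly that of Ephb6. Epha4 took nearly the same part of the EphA sum in both tissues, 47.0% in cortex and 45.6% in hippocampus.

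The regions were compared over all 20 libraries with edgeR's quasi-likelihood test, as hippocampus minus cortex averaged over the genotypes, with Benjamini-Hochberg adjustment over all 15661 genes tested. This fit did not pair the tissues of a mouse. Of the 36 members tested, 24 (66.7%) were called, against 50.9% of all genes. Of these, 14 rose in hippocampus (38.9% of members, 25.3% of all genes) and 10 fell (27.8%, 25.6% of all genes). The members' median log2 fold change was 0.13 and that of all genes was -0.01, and the median size without sign was 0.34 for members and 0.20 for all genes. A called difference past 0.5 on the log2 scale was found for 15 members (41.7%), against 19.2% of all genes. All 10 mice differed in the same direction for 12 members (33.3%), against 28.2% of all genes. Without the 7 libraries with markers of another tissue, the log2 fold change was 2.54 for Epha6, 1.57 for Dcc, 1.09 for Epha5, 0.49 for Efnb3, 0.48 for Slit1, 0.50 for Unc5a and -0.97 for Ntn4, each called by edgeR and each larger in size than in the fit of all libraries given below. Others were smaller in size without them: Neo1 at -0.53 and Unc5b at 0.57 stayed called, and Unc5c, given below, did not. The exons of the 36 members summed to a median of 6268 bases and those of the genes tested to 4327 bases, and the part of length in the share called was not tested.

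**Figure D2:**
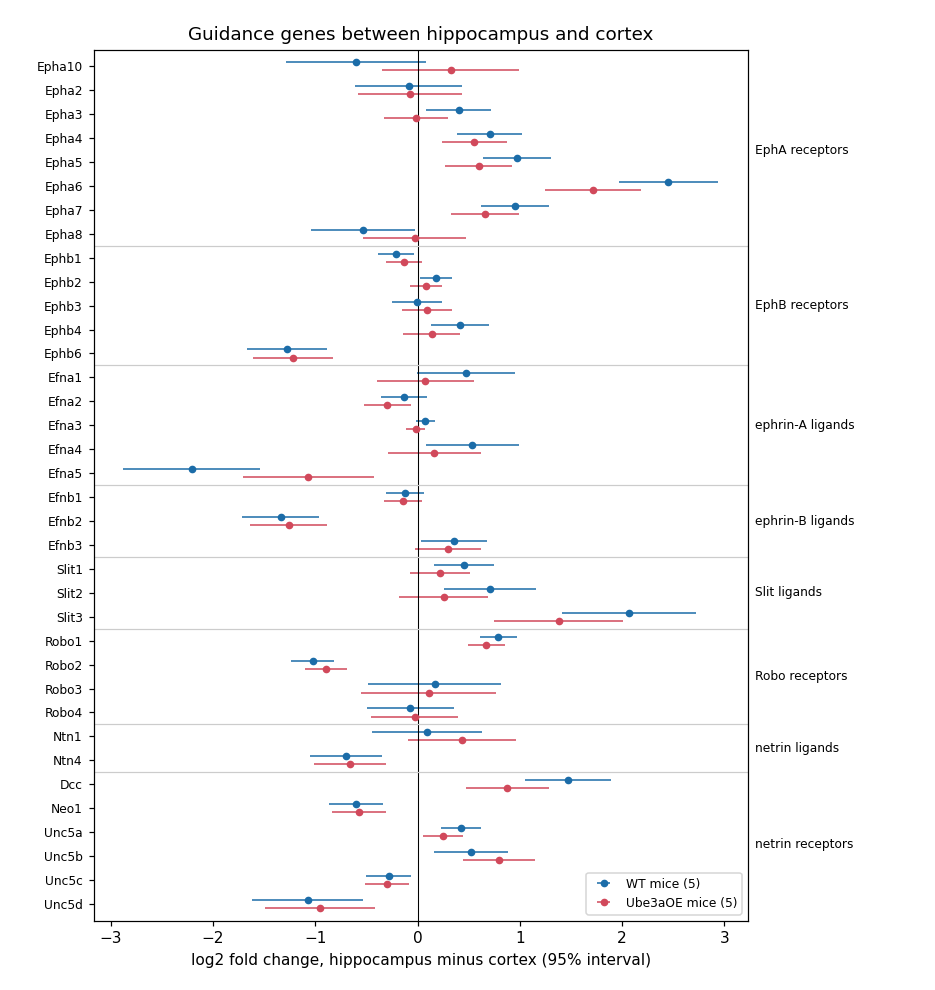
The log2 fold change of hippocampus minus cortex with its 95% interval for the 36 members tested, by family, in the 5 WT mice (blue) and the 5 Ube3aOE mice (red), from 1 fit of all 20 libraries. Epha6, Slit3 and Dcc lie farthest to the right and Efna5, Efnb2 and Ephb6 farthest to the left in WT mice.

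Among the EphA receptors, 4 of the 8 tested rose in hippocampus and none fell. Epha6, an EphA receptor of the nervous system, had 33.8 CPM in the lowest, 53.8 at the median and 72.3 in the highest hippocampal library, against 8.40, 10.8 and 24.2 CPM in cortex. The tissues did not overlap, and the 2 highest cortical values were those of Ube3aOE mice 8 and 9. Its log2 fold change was 2.08 ± 0.16 (SE, 10 mice in each tissue), a 4.24-fold difference (edgeR adjusted p = 9.11e-09), and it was higher in the hippocampus of 10 of 10 mice. Epha7, which is known for repelling ephrin-A5 bearing cells, ran from 73.4 through a median of 106 to 155 CPM in hippocampus and from 47.7 through 63.3 to 75.7 CPM in cortex. The ranges overlapped slightly, 9 of 10 mice were higher in hippocampus, and the log2 fold change was 0.81 ± 0.11 (SE; edgeR adjusted p = 8.52e-06). Epha5, a receptor of the A-type ephrins that is abundant in forebrain neurons, had 214, 318 and 456 CPM in hippocampus at its lowest, median and highest, against 171, 185 and 249 CPM in cortex. Its log2 fold change was 0.78 ± 0.11 (SE; edgeR adjusted p = 1.04e-05) with 9 of 10 mice higher in hippocampus. Epha4, which binds ephrins of both classes, rose by 0.63 ± 0.11 on the log2 scale in 10 of 10 mice (edgeR adjusted p = 7.55e-05). The other 4 receptors of the family were not called in the comparison of all libraries, with log2 fold changes of 0.19 for Epha3, -0.08 for Epha2, -0.14 for Epha10 and -0.28 for Epha8 (edgeR adjusted p = 0.137, 0.721, 0.640 and 0.178).

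Epha1, the remaining receptor of the family, was counted 0 to 7 times in 17 libraries and 55, 69 and 187 times in 3 hippocampal ones, those of WT mouse 4 and Ube3aOE mice 7 and 10. This came to 3.16, 4.17 and 11.2 CPM. The summed markers of thalamus, a neighbour of the hippocampus, were 509, 596 and 1204 CPM in the same 3 libraries and 141 to 223 CPM in the other 7 hippocampal ones. Tcf7l2, a defining factor of thalamic neurons, had 226, 271 and 564 CPM there, against 2.83 to 46.2 CPM in the others. Gbx2, Lhx9 and Slc17a6 of the same list were also highest in these 3 libraries. Prkcd, the remaining gene of the list, was not, at 46.4, 41.8 and 43.6 CPM, against 27.7 to 54.2 CPM in the others. Epha10, an Eph receptor without kinase activity, had 22.5, 27.8 and 43.9 CPM in those libraries, and 25.7 CPM in Ube3aOE mouse 9, against 8.52 to 15.1 CPM in the remaining 6. Epha8 had 41.1, 35.6 and 62.8 CPM there and 38.8 CPM in mouse 9, against 23.0 to 26.1 CPM in the other 6. Without the 5 hippocampal libraries of mice 2, 4, 7, 9 and 10, a choice made after the markers were seen, Epha10 fell in hippocampus by 0.93 on the log2 scale (edgeR adjusted p = 3.87e-07) and Epha8 by 0.70 (edgeR adjusted p = 2.02e-04). The part of the neighbouring tissue in these values was not tested. Exons of Zyx overlap those of Epha1 on the opposite strand, and the strand setting of the counting is not given in the sources used here.

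**Figure D3:**
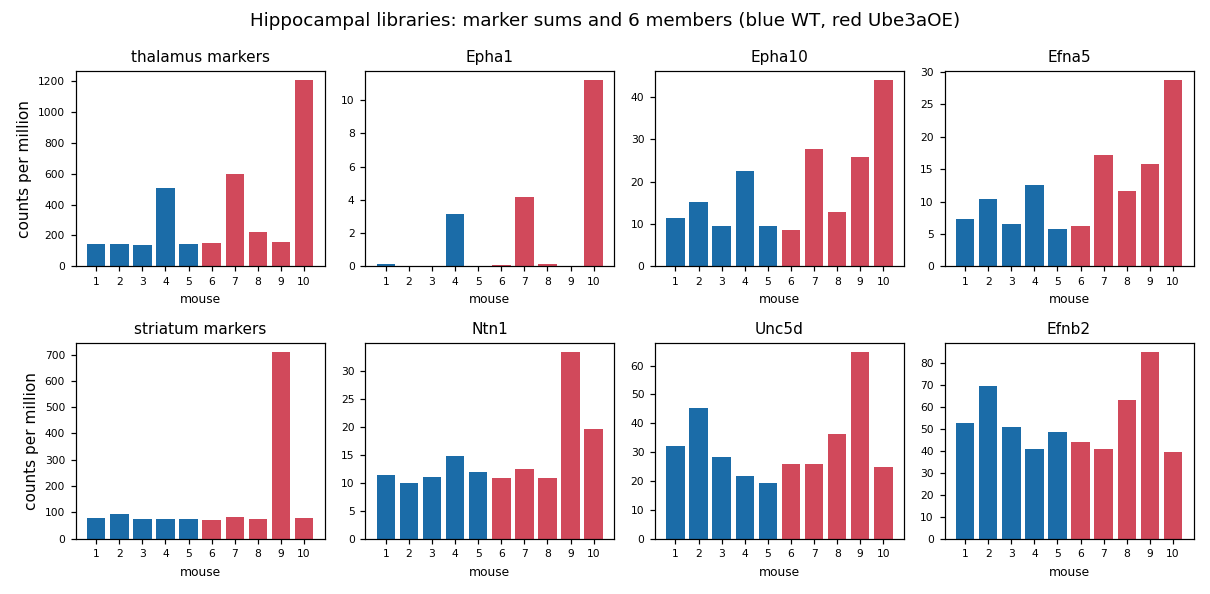
Summed thalamus and striatum markers and 6 members in CPM in the hippocampal library of each mouse (blue WT, red Ube3aOE). Epha1 stands above 3 CPM in mice 4, 7 and 10, where the thalamus sum is at 509 CPM or more, and Ntn1 and Unc5d are highest in mouse 9, where the striatum sum is 709 CPM.

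Among the EphB receptors, 2 rose, 2 fell and 1 was not called. Ephb6, an Eph receptor that lacks kinase activity, had 61.6 CPM in the lowest, 67.9 at the median and 101 in the highest hippocampal library, against 93.4, 189 and 216 CPM in cortex. The tissues overlapped only through the hippocampus of WT mouse 2 and the cortex of Ube3aOE mouse 8, and every mouse was lower in hippocampus. It differed by -1.24 ± 0.13 on the log2 scale (SE, 10 mice in each tissue; edgeR adjusted p = 3.77e-07). The other differences in the family were small. Ephb4, known from blood vessels, rose by 0.27 (edgeR adjusted p = 0.0210) and Ephb2, a synaptic and axonal receptor, by 0.13 (edgeR adjusted p = 0.0469) on the log2 scale. Ephb1, which is known for sorting retinal axons at the midline, fell by 0.17 (edgeR adjusted p = 0.0206). Ephb3 had a log2 fold change of 0.04 and was not called (edgeR adjusted p = 0.700). The call of Ephb1 was lost without WT mouse 1 or 5 or Ube3aOE mouse 6 or 7 (highest edgeR adjusted p = 0.0716), that of Ephb2 without WT mouse 2, 3 or 5 or Ube3aOE mouse 6 or 8 (0.129), and that of Ephb4 without WT mouse 4 or 5 or Ube3aOE mouse 6 or 10 (0.0730). Without the 7 libraries with markers of another tissue Ephb4 rose by 0.48 (edgeR adjusted p = 0.00150).

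Among the A-type ephrins, 2 fell and 3 were not called. Efna5, which repels axons bearing EphA receptors, had 5.72 CPM in the lowest, 11.1 at the median and 28.8 in the highest hippocampal library, against 22.4, 37.7 and 47.0 CPM in cortex. All 10 mice were lower in hippocampus, and the overlap of the tissues came from the hippocampus of Ube3aOE mouse 10 and the cortex of Ube3aOE mice 8 and 9. On the log2 scale it differed by -1.64 ± 0.22 (SE, 10 mice in each tissue), a 3.11-fold difference (edgeR adjusted p = 6.84e-06). Without the 7 libraries with markers of another tissue it was -2.37 (edgeR adjusted p = 2.58e-09). Efna2 fell by 0.21 on the log2 scale (edgeR adjusted p = 0.0249), a call that was lost without WT mouse 2 or Ube3aOE mouse 6 or 10 (highest adjusted p = 0.0551), and by 0.34 without the 7 libraries (edgeR adjusted p = 0.00890). Efna4, Efna1 and Efna3, which lie next to each other on chromosome 3, had log2 fold changes of 0.35, 0.27 and 0.03 and were not called (edgeR adjusted p = 0.0635, 0.170 and 0.50). On that chromosome in GRCm38, Efna3 (89313899 to 89322965) lies 32.8 kb from Efna1 (89271733 to 89281142) and 10.4 kb from Efna4 (89333390 to 89338028), all on the minus strand. The 95% interval of Efna3 ran from -0.04 to 0.10 on the log2 scale, so a difference past 0.5 lay outside it.

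The B-type ephrins went in both directions. Efnb2, a ligand known from blood vessels and migrating neurons, had 39.4 CPM in the lowest, 49.7 at the median and 84.8 in the highest hippocampal library, against 119, 129 and 154 CPM in cortex. The tissues did not overlap, and the highest hippocampal value was that of Ube3aOE mouse 9. On the log2 scale it differed by -1.30 ± 0.13 (SE, 10 mice in each tissue; edgeR adjusted p = 1.26e-07). Efnb3, the most abundant member, rose by 0.33 ± 0.11 (SE; edgeR adjusted p = 0.0170), with 9 of 10 mice higher in hippocampus. Efnb1, an X-linked ligand, had a log2 fold change of -0.13 and was not called (edgeR adjusted p = 0.0889). The summed markers of endothelium, in which Efnb2 and Ephb4 are also used, lay at 106 to 202 CPM in cortex and 136 to 190 CPM in hippocampus, and of the 8 genes 1 was called, lower in hippocampus.

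All 3 Slit ligands rose in hippocampus. Slit3 had 31.4 CPM in the lowest, 39.9 at the median and 57.6 in the highest hippocampal library, against 7.24, 10.5 and 28.1 CPM in cortex. The tissues did not overlap, and cortex of Ube3aOE mice 8 and 9 held the 2 highest cortical values. The log2 fold change was 1.72 ± 0.22 (SE, 10 mice in each tissue), a 3.30-fold difference (edgeR adjusted p = 3.39e-06), and 2.33 without the 7 libraries with markers of another tissue (edgeR adjusted p = 2.22e-09). Slit2 rose by 0.48 ± 0.15 (SE; edgeR adjusted p = 0.0116) and Slit1 by 0.34 ± 0.10 (SE; edgeR adjusted p = 0.00767), each in 9 of 10 mice. Without the 7 libraries Slit2 rose by 0.80 (edgeR adjusted p = 4.92e-04).

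Their receptors Robo1 and Robo2, neighbours on chromosome 16, differed in opposite directions. In GRCm38 Robo1 lies on the plus strand at 72308306 to 73046095 and Robo2 on the minus strand at 73891839 to 74411825, 846 kb apart. Robo1 had 137 CPM in the lowest, 158 at the median and 194 in the highest hippocampal library, against 84.5, 92.0 and 111 CPM in cortex. Robo2 had 118, 136 and 180 CPM in hippocampus against 232, 269 and 316 CPM in cortex. Neither gene overlapped between the tissues, and every mouse differed in the same direction for each. The log2 fold changes were 0.73 ± 0.06 (SE; edgeR adjusted p = 6.34e-09) for Robo1 and -0.96 ± 0.07 (SE; edgeR adjusted p = 1.90e-09) for Robo2, the latter the smallest p among the members. Robo3, known for commissural axons, and Robo4, known from endothelium, are neighbours on chromosome 9 and were not called, with log2 fold changes of 0.14 and -0.05 (edgeR adjusted p = 0.636 and 0.793).

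Of the netrins, Ntn4, a matrix netrin that binds laminins, fell. It had 5.45 CPM in the lowest, 8.76 at the median and 12.2 in the highest hippocampal library, against 11.4, 14.3 and 17.3 CPM in cortex, and the log2 fold change was -0.68 ± 0.12 (SE; edgeR adjusted p = 7.25e-05), with 1 mouse higher in hippocampus. Ntn1, the classical attractant for Dcc-bearing axons, was not called, with a log2 fold change of 0.26 (edgeR adjusted p = 0.233). Its hippocampal values lay from 10.0 to 19.7 CPM in 9 libraries and at 33.3 CPM in Ube3aOE mouse 9. In that library the summed markers of striatum were 709 CPM, against 72.9 to 92.3 CPM in the other 9, and those of choroid plexus 404 CPM. The part of these tissues in the Ntn1 value was not tested. Without the 5 hippocampal libraries named above the log2 fold change of Ntn1 was -0.09.

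All 6 netrin receptors were called, 3 in each direction. Dcc, the receptor through which netrin attracts axons, had 24.7 CPM in the lowest, 32.7 at the median and 48.1 in the highest hippocampal library, against 9.57, 12.6 and 27.1 CPM in cortex. All 10 mice were higher in hippocampus, and the tissues overlapped only through the cortex of Ube3aOE mice 8 and 9. The difference was 1.17 ± 0.14 on the log2 scale (SE, 10 mice in each tissue; edgeR adjusted p = 1.21e-06). Neo1, the relative of Dcc that also binds repulsive guidance molecules, differed the other way: it had 214 CPM in the lowest, 293 at the median and 369 in the highest hippocampal library, against 395, 429 and 482 CPM in cortex. The tissues did not overlap, and the log2 fold change was -0.59 ± 0.09 (SE; edgeR adjusted p = 1.88e-05).

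The Unc5 receptors, which turn netrin into repulsion, split in pairs. Unc5d had 19.2 CPM in the lowest, 27.2 at the median and 64.6 in the highest hippocampal library, against 47.9, 67.2 and 83.4 CPM in cortex. The highest hippocampal value was that of Ube3aOE mouse 9, and all 10 mice were lower in hippocampus, with a log2 fold change of -1.01 ± 0.18 (SE; edgeR adjusted p = 1.53e-04). Unc5c fell by 0.29 on the log2 scale (edgeR adjusted p = 0.00250), a call that was lost without the 7 libraries with markers of another tissue, where it fell by 0.21 (edgeR adjusted p = 0.0650). Unc5b rose by 0.66 (edgeR adjusted p = 1.21e-04) in 10 of 10 mice and Unc5a by 0.34 (edgeR adjusted p = 2.67e-04) in 9 of 10. Exons of Hk3 overlap those of Unc5a on the opposite strand.

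**Figure D4:**
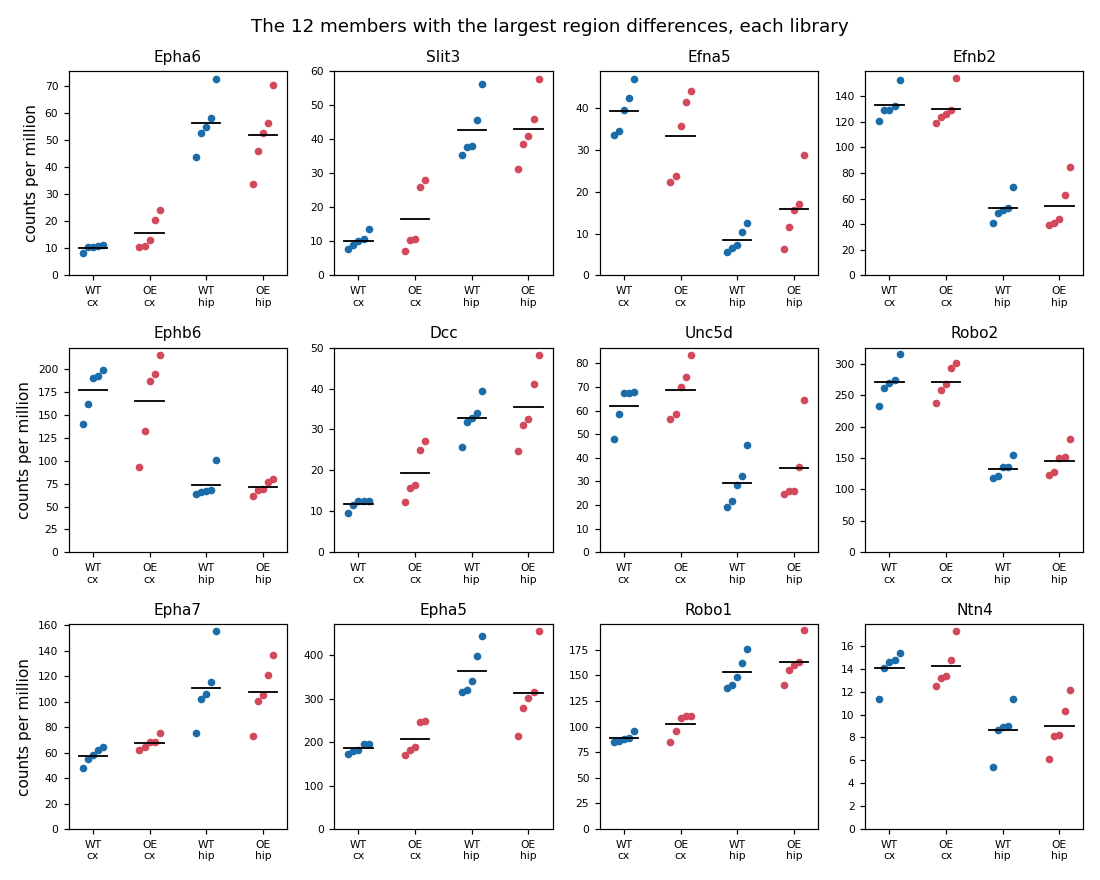
CPM of the 12 members with the largest called region differences, 1 point per library in WT cortex, Ube3aOE cortex, WT hippocampus and Ube3aOE hippocampus (5 each), with the group mean as a line. Epha6, Slit3, Robo1, Robo2 and Efnb2 do not overlap between tissues, and the 2 highest Ube3aOE cortex points of Epha6, Slit3 and Dcc belong to mice 8 and 9.

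The WT and the Ube3aOE mice are separate sets of 5 animals, and the region difference was also taken within each. In WT mice 21 members were called (58.3%, against 37.1% of all genes) and in Ube3aOE mice 18 (50.0%, against 33.2%). Called in both with the same direction were 17 members (47.2%), against 25.4% of all genes. Ephb4, Slit1 and Slit2 were called in WT but not in Ube3aOE mice. In the latter they had log2 fold changes of 0.14, 0.22 and 0.25 (edgeR adjusted p = 0.463, 0.242 and 0.379). Efna2 was called in Ube3aOE mice only, and Ephb1, Ephb2 and Efnb3 in neither set alone. Of the 21 called in WT mice, 20 had the same sign in Ube3aOE mice (95.2%), as had 98.5% of the 5816 genes called in WT mice. The exception was Epha3, with a log2 fold change of 0.40 in WT mice (edgeR adjusted p = 0.0425) and -0.01 in Ube3aOE mice (edgeR adjusted p = 0.956). Its cortical values were 39.1 and 36.3 CPM in Ube3aOE mice 8 and 9 and 18.2 to 28.4 CPM in the other 8. Without the cortex of these mice Epha3 was called higher in hippocampus, at 0.36 on the log2 scale (edgeR adjusted p = 0.00108).

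The genes through which these receptors act or with which they pair were counted from a list of 52 partners, all of which were tested. The list was chosen with earlier results of these data known. Of these, 36 (69.2%) were called, 23 higher and 13 lower in hippocampus, against 50.9% of all genes. The 4 largest rises were those of Vav3, a signalling protein that acts below Eph receptors, at 1.95 ± 0.27 on the log2 scale (SE; edgeR adjusted p = 6.35e-06), Draxin, a secreted ligand of Dcc, at 0.83 ± 0.12 (SE; edgeR adjusted p = 1.50e-05), Sipa1l1 at 0.64 and Inppl1 at 0.52. The 4 largest falls were those of Ngef, the exchange factor ephexin-1 that acts below EphA4, at -1.35 ± 0.20 (SE; edgeR adjusted p = 2.49e-05), Pdzrn3 at -1.19, Grip2, which binds ephrin-B tails, at -1.13 and Ablim1, linked to netrin signalling, at -0.87. The median was 0.09 for the partners. Their median size without sign was 0.186, against 0.196 for all genes, so the share called was higher but the typical size was not. Median CPM of Ngef was 63.9 in hippocampus and 203 in cortex, and that of Vav3 7.81 and 2.54.

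The genotypes were then compared within each tissue, 5 Ube3aOE against 5 WT libraries. No member passed an adjusted p of 0.05 by edgeR or DESeq2 in either tissue, and 1 gene of all tested did in each, Ube3a (0.00657% of 15220 genes in hippocampus and 0.00669% of 14947 in cortex), at log2 fold changes of 1.32 ± 0.11 (SE; edgeR adjusted p = 4.41e-04) and 1.31 ± 0.11 (SE; edgeR adjusted p = 8.22e-04). The 5 Ube3aOE values of every one of the 36 members overlapped with the 5 WT values in both tissues. The share of all genes with such overlap was not counted, so this says nothing particular to the members. The 95% interval of the log2 fold change lay inside -0.5 to 0.5 for 23 members in hippocampus (63.9%, against 69.9% of all genes) and for 21 in cortex (58.3%, against 73.8%). For the others a difference past 0.5 was left within the interval. The median log2 fold change of the members was 0.05 in hippocampus and 0.11 in cortex.

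**Figure D5:**
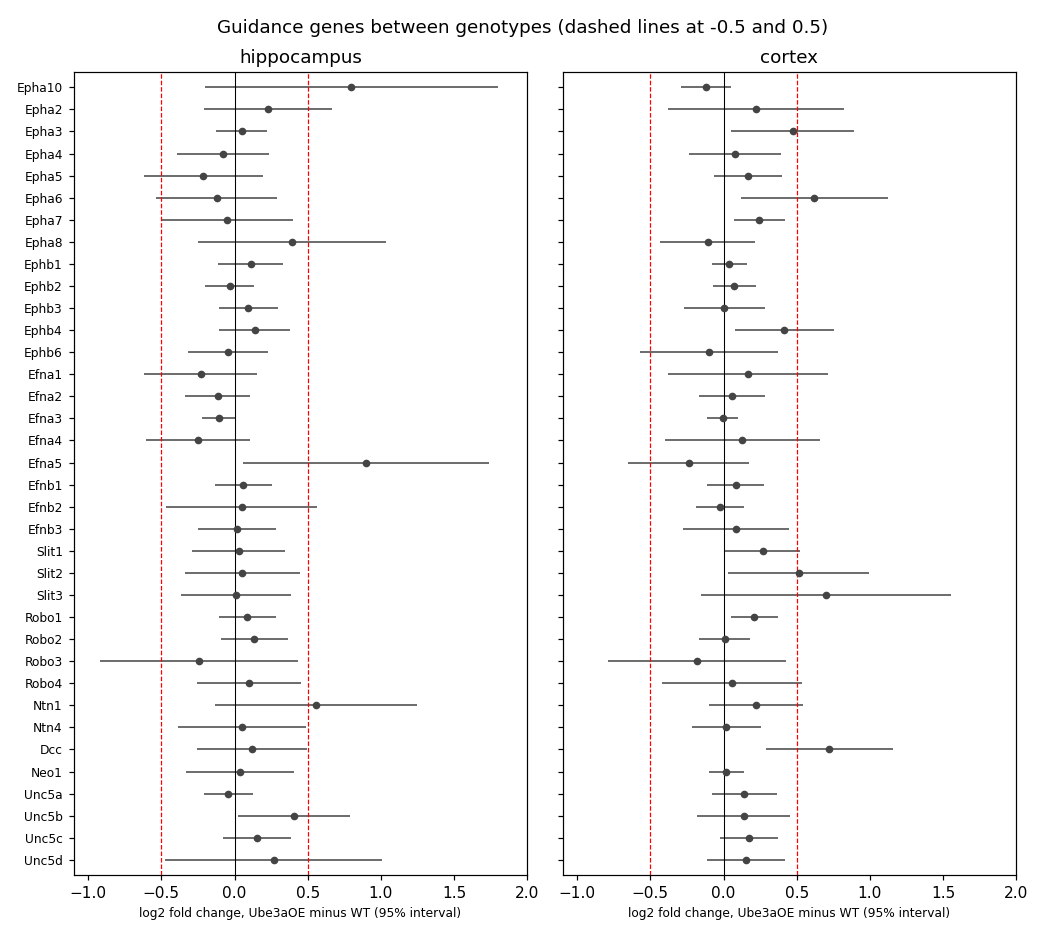
The log2 fold change of Ube3aOE minus WT with its 95% interval for the 36 members in hippocampus (left) and cortex (right), with dashed lines at -0.5 and 0.5. No member passed the adjusted threshold, and 23 intervals in hippocampus and 21 in cortex lie between the dashed lines.

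In hippocampus 2 members had an unadjusted p under 0.05 by edgeR (5.56%, against 7.21% of all genes), both of them higher in Ube3aOE mice (3.71% of all genes were). The 3 smallest p values were those of Efna5, Unc5b and Efna3. Efna5 had 7.38, 10.4, 6.53, 12.6 and 5.72 CPM in WT mice 1 to 5 and 6.32, 17.2, 11.7, 15.8 and 28.8 CPM in Ube3aOE mice 6 to 10. Its highest values stood in libraries with thalamus, striatum or choroid plexus markers, and the groups overlapped. The log2 fold change of Efna5 was 0.90 ± 0.38 (SE; edgeR unadjusted p = 0.0381, adjusted p = 0.668). Unc5b had a log2 fold change of 0.41 ± 0.18 (SE; edgeR adjusted p = 0.668) and Efna3 one of -0.11 ± 0.05 (SE; edgeR adjusted p = 0.668). Leaving out the hippocampal libraries of mice 2, 4, 7, 9 and 10 left 3 WT and 2 Ube3aOE libraries. The values were then 0.46 for Efna5, 0.06 for Unc5b and -0.09 for Efna3. In that fit 2 members had an unadjusted p under 0.05 by edgeR, against 3.93% of all genes. They were Dcc, at 0.36, and Unc5c, at 0.28, both higher in Ube3aOE mice (edgeR adjusted p = 0.999 for each).

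In cortex 8 members had an unadjusted p under 0.05 by edgeR (22.2%, against 4.44% of all genes), and all 8 were higher in Ube3aOE mice (2.48% of all genes were). They were Dcc, Epha7, Robo1, Ephb4, Epha6, Epha3, Slit2 and Slit1, of which all but Epha3 were also called higher in hippocampus than in cortex. Dcc had 12.5, 9.57, 11.5, 12.6 and 12.6 CPM in WT mice 1 to 5 and 12.4, 15.8, 25.1, 27.1 and 16.5 CPM in Ube3aOE mice 6 to 10. The 2 highest values were those of mice 8 and 9, and the groups overlapped through mouse 6. The cortex of mice 8 and 9 had the highest sums of hippocampus markers, though not the highest value of every gene on that list. Their sums of meningeal fibroblast markers (800 and 417 CPM) and of thalamus markers (118 and 114 CPM) were also the highest of any cortex. The next cortical sums were 389 and 101 CPM, and again not every gene of these lists was highest there. The log2 fold change of Dcc was 0.72 ± 0.20 (SE; edgeR unadjusted p = 0.00352, adjusted p = 0.960), that of Epha7 was 0.24 ± 0.08 and that of Robo1 was 0.21 ± 0.07 (SE; edgeR adjusted p = 0.960 for each). Without the cortex of mice 8 and 9 they were 0.33, 0.21 and 0.13, and 3 members, Dcc, Epha7 and Ephb2, had an unadjusted p under 0.05, against 3.19% of all genes. The part of hippocampal, meningeal or thalamic tissue in the cortical differences was not tested.

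No member passed in the test of whether the genotype difference differed between the tissues by edgeR or DESeq2, and no gene of all 15661 did by edgeR (0% called). At an unadjusted p under 0.05 by edgeR there were 3 members, Efna5, Epha6 and Dcc (8.33%, against 3.77% of all genes). The difference between the tissues was 1.14 for Efna5 (95% interval 0.23 to 2.05), -0.74 for Epha6 (-1.40 to -0.07) and -0.60 for Dcc (-1.18 to -0.02) on the log2 scale, with an edgeR adjusted p of 0.997 for each. Of the 52 partners none was called between genotypes by edgeR, while an unadjusted p under 0.05 was found for 8 of them in hippocampus (against 7.21% of all genes) and for 4 in cortex (against 4.44%).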

How the data were processed

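RNA libraries of cortex and hippocampus of 5 WT and 5 Ube3aOE pups were analysed. The authors deposited raw counts of reads per gene, 1 file per library, made per the labels with HISAT2 2.1.0 and HTSeq 0.11.2 on GRCm38 (mm10). The strand setting and annotation release are not given in the sources used here. The 5 lines of each file that name no gene were left out of totals and tests, and the genes took 69.7% to 81.2% of a file's total. Groups came from the labels.

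Counts were fitted with edgeR 4.0.16 in R 4.3.3 (TMM, filterByExpr with a minimum count of 10, robust quasi-likelihood F test, Benjamini-Hochberg over all genes tested). The regions and the interaction used all 20 libraries, the genotypes the 10 libraries of a tissue. Standard errors and 95% intervals came from the F statistic. CPM used TMM factors, and CPM per kilobase divided them by the exon bases of GENCODE M21. The fit was tested on simulated data. DESeq2 1.42.0 was an alternative. Libraries of 1 mouse share its number in the labels, and once group means were removed, their log2 CPM correlated across genes (median 0.215, from -0.0367 to 0.248, above 0.1 in 9 of 10 mice). The mouse as a replicate block was an alternative.

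Every member that passed the filter is named with its region difference, values by library are given for the 12 largest called differences, and for the genotype the 3 members with the smallest p in each tissue are named. The largest 4 partners in each direction are named, and other names were chosen after their values were seen. Members were taken by symbol alone. The choice of these families and of the partner and marker lists was made with earlier results of these data known. Marker lists were those of hippocampus, neocortex, striatum, thalamus, choroid plexus, endothelium, meningeal fibroblasts and the oligodendrocyte lineage. Alternatives were other size factors, no filter, labelled sex, length and GC correction, each mouse left out, and libraries with markers of another tissue left out. Promoters came from RefSeq (GRCm38.p6).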

Additional observations from a re-analysis of the deposited data

Results flagged for a closer look

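Each member's CPM was compared within each of the 4 groups of 5 libraries, and a library was flagged when its gap to the nearest other exceeded 0.71 of the group's range. Of 148 such comparisons 8 were flagged, and chance flags about 1 in 20 groups, which comes to 7.4. Epha1 stood at 3.16 CPM in the hippocampus of WT mouse 4, where the nearest value was 0.117 CPM, and Epha8 at 41.1 CPM in the same library, where the nearest was 26.1 CPM. Epha2 stood at 1.98 CPM in the hippocampus of Ube3aOE mouse 10, against 1.55 CPM. In the hippocampus of Ube3aOE mouse 9, Ephb1 stood at 68.8 CPM, against 51.9 CPM, and Unc5d at 64.6 CPM, against 36.2 CPM. Ephb6 stood at 101 CPM in the hippocampus of WT mouse 2, against 68.2 CPM. In cortex, Efnb2 stood at 154 CPM in Ube3aOE mouse 7, against 129 CPM, and Epha6 at 8.40 CPM in WT mouse 4, below the next value of 10.5 CPM. Of the 8 flags, 6 were among the 5 hippocampal libraries with markers of another tissue, out of 20 libraries in all. The part of that tissue in the values was not tested.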

How the results depend on the processing

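Of the 24 members called between the regions, 19 kept direction and call under every alternative run, and none of the 24 changed sign. Ephb1, Ephb2, Ephb4, Efna2 and Unc5c lost the call under some. The count called was 20 to 26 when each mouse was left out, 17 to 24 within WT mice and 14 to 17 within Ube3aOE mice, and the lowest, 20, was without Ube3aOE mouse 6. Efna4 was called by DESeq2 and after the length and GC correction. Calls were gained for Efna4 without WT mouse 2 (0.51 on the log2 scale) or Ube3aOE mouse 7 (0.41), for Epha3 without Ube3aOE mouse 8 or 9 (0.27 for each), for Epha8 without mouse 10 (-0.42) and for Efnb1 without mouse 9 (-0.16). With the mouse as a replicate block 24 members were called between the regions, 24 in WT mice and 19 in Ube3aOE mice, and 0 in the interaction. Within WT mice the block lost Epha3 and gained Efna1, Efnb3, Ephb1 and Ephb2, and within Ube3aOE mice it gained Efnb3. It changed no other call of the members. Its edgeR adjusted p between the regions was larger than that of the unpaired fit for some members, such as Epha6 (1.34e-05). For others, such as Efnb3 (3.60e-04), it was smaller. Without the 7 libraries with markers of another tissue, a choice made after seeing the data, 26 were called between the regions. No member was called between genotypes under any alternative. The members inside the borders numbered 18 to 22 in hippocampus and 18 to 25 in cortex when each mouse was left out.

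Among members not called, the region log2 fold change changed sign for Epha2 without WT mouse 1 (-0.187 to 0.064 over the mice left out), for Robo4 without WT mouse 1 or Ube3aOE mouse 9 (-0.104 to 0.0016), for Ephb3 (-0.0115) and Robo3 (-0.0178) without the cortex of Ube3aOE mice 8 and 9, and for Ntn1 without the 5 hippocampal libraries (-0.0942) or all 7 (-0.0993). The cause was not tested.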

Other observations

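The other marker lists gave these values. Of the 7 choroid plexus genes tested, 5 were called higher and 1 lower in hippocampus, and the sum reached 2073 CPM in the hippocampus of Ube3aOE mouse 7, against 46.6 to 84.1 CPM in 18 other libraries. Of the 8 neocortex genes 5 were called lower and 1 higher, of the 8 striatum genes 2 and 2, and of the 4 thalamus genes tested all 4 were higher. Of the 8 genes of meningeal fibroblasts 3 were called lower in hippocampus, with the highest sum, 800 CPM, in the cortex of Ube3aOE mouse 8. Of the 7 genes of the oligodendrocyte lineage tested, 4 were called higher in hippocampus, with sums of 359 to 494 CPM in cortex and 400 to 628 CPM in hippocampus.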
